A study of Mus musculus with 135 samples.

Results

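The genes described here encode the mitochondrial respiratory chain and its ATP synthase. They were chosen by name from GENCODE M21: protein-coding autosomal genes beginning Ndufa, Ndufb, Ndufc, Ndufs, Ndufv, Uqcr, Cox4, Cox5, Cox6, Cox7, Cox8 or Atp5, plus Sdha, Sdhb, Sdhc, Sdhd and Cyc1. The rule gave 91 gene names of 21924 protein-coding genes, and the names, not measured values, set the membership. They comprised 34 subunits of complex I, 8 complex I assembly factors of the Ndufaf group, 2 members of the NDUFA4 family, 4 subunits of complex II, 9 of complex III, 17 of complex IV and 17 names of the ATP synthase group. A further 3 genes that fit by name (Cox7b, Ndufa1 and Ndufb11) lie on the X chromosome and were left out.

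The data are ChIP-seq libraries of H3K4me3, the trimethylation of lysine 4 of histone H3, made from chromatin cut with MNase: 123 mouse samples, with 12 input samples besides. The mice were 2 inbred strains, B6 (C57BL/6J) and D2 (DBA/2J), the F1 hybrid between these and the BXD recombinant inbred lines, each of which carries a fixed mosaic of the B6 and D2 genomes. Male germ cells came from a crude isolation at 14 days post-partum (B6, n = 3; D2, n = 3; F1, n = 4; and 61 BXD lines with 69 libraries). Female mice aged 8 weeks gave the hepatocytes and cardiomyocytes (B6, D2, BXD75 and BXD87, n = 3 libraries each). Stem cell lines were derived from embryos at day 3.5, again in these 4 strains and with 5 libraries a strain; libraries of one line were summed, which left 3 B6, 3 D2, 5 BXD75 and 5 BXD87 lines. No transgene or treatment separates the groups. Germ cell libraries used the NEXTflex kit and the others the KAPA hyper kit. Nothing in the labels ties a tissue library to its own animal, so the p-values measure the spread between these samples, which may be technical.

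In units of 1000000 reads (M), libraries held from 1.87 to 31.4 M reads in peaks in germ cells, 8.95 to 25.2 M in hepatocytes and 13.8 to 20.2 M in stem cells. In cardiomyocytes the 3 D2 libraries held 2.62 to 4.10 M reads and the B6 libraries 6.84 to 8.34 M, so D2 levels there are the least precise. Of the markers fixed for each cell type, 8 of 8 hepatocyte genes had a peak in hepatocytes and 8 of 8 male germ cell genes in germ cells. Among cardiomyocyte markers 4 of 8 had a peak in cardiomyocytes, and the defining genes Myh6, Tnnt2 and Actc1 were not listed there. Among stem cell markers 5 of 8 had a peak in stem cells, and Pou5f1, Nanog and Tdgf1 were not listed. In germ cells a peak was also listed for 5 of 8 Sertoli and Leydig cell markers, with a summed level of 246 to 368 counts per 1000000 reads in peaks (CPM) against 336 to 481 CPM for the germ cell markers. A lower level in such bulk samples can be fewer cells of a type or less of the mark per cell, and these cannot be told apart.

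H3K4me3 marks the start sites of active genes, and its breadth as well as its height varies between promoters. The respiratory chain passes electrons from NADH (complex I) and succinate (complex II) through complex III and cytochrome c to oxygen at complex IV, and the proton gradient this builds drives the ATP synthase. Most subunits are made in every cell with mitochondria. Complex IV is unusual in having tissue-specific isoforms: Cox6a2, Cox7a1 and Cox8b are the heart and skeletal muscle forms of Cox6a1, Cox7a2 and Cox8a, Cox4i2 is a form studied in lung and low oxygen, and Cox6b2, Cox7b2 and Cox8c are testis forms. The nuclear factors NRF1, GABP (an ETS factor) and YY1 and the estrogen-related receptors (ERR) are the textbook regulators of these genes.

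The promoters of ubiquitous (Cox6a1, Cox7a2, Cox8a) and muscle (Cox7a1, Cox8b) isoforms of complex IV, and of Ndufa13 and Ndufb4, whose mark differed between B6 and D2, are shown because the results turn on them. Each run gives the 200 bases upstream of the RefSeq start site in GRCm38.p6, 5′ to 3′ on the gene's strand, with matches to the motifs described in the next paragraph in capitals, except the short CRE core TGACG, which is not marked. Cox6a1 lies at chr5:115348959-115349158 (minus strand), Cox7a1 at chr7:30183971-30184170 (plus), Cox7a2 at chr9:79759854-79760053 (minus), Cox8a at chr19:7217617-7217816 (minus), Cox8b at chr7:140900447-140900646 (minus), Ndufa13 at chr8:69902021-69902220 (minus) and Ndufb4 at chr16:37654369-37654568 (minus). The RefSeq start site of Ndufa13 lies 538 bases from the nearest GENCODE start site, and GENCODE sites were used to assign peaks. Its run lies inside the GENCODE gene (chr8:69894180-69902558).
Cox6a1: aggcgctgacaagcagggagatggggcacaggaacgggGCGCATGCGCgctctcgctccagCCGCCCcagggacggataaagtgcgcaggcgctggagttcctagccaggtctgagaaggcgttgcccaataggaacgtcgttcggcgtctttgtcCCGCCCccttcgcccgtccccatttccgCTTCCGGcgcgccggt
Cox7a2: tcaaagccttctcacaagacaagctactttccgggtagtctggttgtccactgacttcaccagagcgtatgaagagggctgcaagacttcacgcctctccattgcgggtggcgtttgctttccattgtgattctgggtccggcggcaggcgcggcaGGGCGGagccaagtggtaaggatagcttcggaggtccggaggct
Cox8a: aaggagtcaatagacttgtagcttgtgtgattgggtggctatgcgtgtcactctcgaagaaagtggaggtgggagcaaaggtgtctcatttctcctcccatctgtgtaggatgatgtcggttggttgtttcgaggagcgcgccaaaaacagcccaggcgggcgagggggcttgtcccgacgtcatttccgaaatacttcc
Cox7a1: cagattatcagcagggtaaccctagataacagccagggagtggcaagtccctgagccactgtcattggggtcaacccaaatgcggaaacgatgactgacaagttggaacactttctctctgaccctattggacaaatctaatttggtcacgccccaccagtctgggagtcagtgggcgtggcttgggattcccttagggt
Cox8b: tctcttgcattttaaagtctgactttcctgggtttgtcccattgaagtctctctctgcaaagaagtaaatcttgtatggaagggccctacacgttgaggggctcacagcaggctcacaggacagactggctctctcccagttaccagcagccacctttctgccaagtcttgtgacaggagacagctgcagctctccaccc
Ndufa13: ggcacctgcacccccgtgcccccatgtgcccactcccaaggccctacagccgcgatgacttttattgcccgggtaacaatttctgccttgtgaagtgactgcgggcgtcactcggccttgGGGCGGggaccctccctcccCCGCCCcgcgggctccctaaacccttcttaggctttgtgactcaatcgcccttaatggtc
Ndufb4: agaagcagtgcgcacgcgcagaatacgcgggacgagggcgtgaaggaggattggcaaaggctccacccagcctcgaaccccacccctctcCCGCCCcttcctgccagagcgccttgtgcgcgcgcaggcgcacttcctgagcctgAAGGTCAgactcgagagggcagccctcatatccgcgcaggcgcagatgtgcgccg

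Cox6a1 held an NRF1 match on both strands, 2 SP1 matches and an ETS match close to the start. The upstream runs of the muscle isoforms Cox7a1 and Cox8b held no match to any of the motifs. Within these runs this did not separate ubiquitous from muscle forms, since the run of Cox7a2 held only an SP1 match and that of Cox8a no marked match. Over the whole window of 250 bases before to 50 after the start site, 73 of the 91 names had a RefSeq sequence. In that window Cox8a held an ETS match and the core TGACG, and Cox7a2 an SP1 match. Cox8b held only a TATA match there, and Cox7a1 none. The NRF1 motif GCGCATGCG, read on both strands, was in 10 of the 73 (13.7%) against 2.41% of 17491 promoters: Atp5g2, Atp5k, Atp5l, Cox6a1, Ndufa11, Ndufa8, Ndufaf4, Ndufaf5, Uqcr11 and Uqcrc1. The ETS motif CCGGAAG was in 17 (23.3% against 11.9%), the YY1 motif AAGATGG in 11 (15.1% against 6.37%) and the ERR motif AAGGTCA in 8 (10.96% against 4.08%). The SP1 motif GGGCGG was in 34 (46.6% against 46.3%), and the TATA motif TATAAA in 7 (9.59% against 13.3%). The CRE motif TGACGTCA was in 4 (5.48% against 2.34%), and its shorter core TGACG, which overlaps it, in 25 (34.2% against 23.8%). At least 1 of the NRF1, ETS and YY1 motifs was in 33 of the 73 windows, and NRF1 and ETS together were in 4. These matches are descriptions of the letters and not sites.

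The members' windows had a median GC content of 58.7% and 20 CpG dinucleotides, against 56.3% and 13 over all promoters. Only 3 windows held fewer than 10 CpG: Cox8b with 2, Cox7a1 with 7 and Ndufc2 with 8. The ubiquitous partners of the first pair were CpG-rich, with 19 in Cox8a and 20 in Cox7a2.

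**Figure D1:**
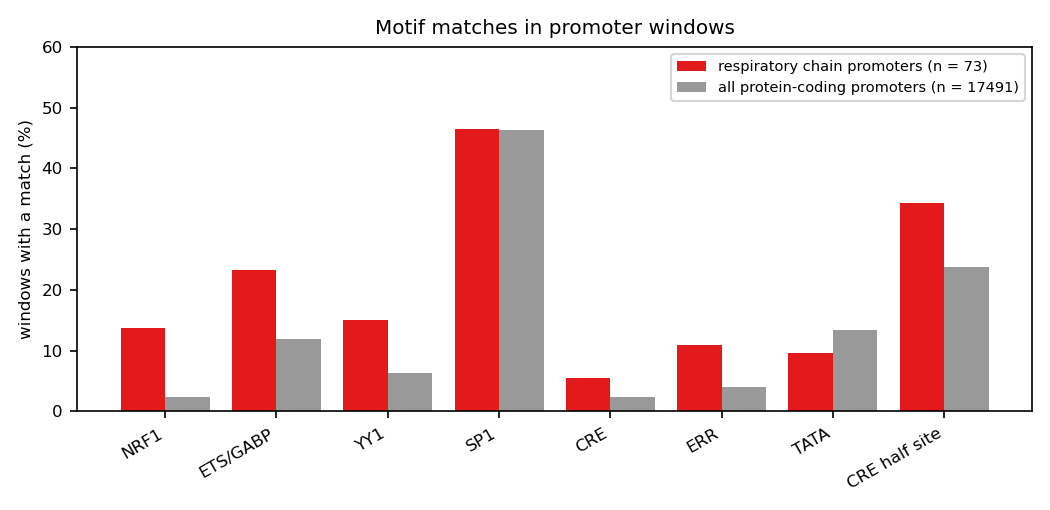
Bars give the share (percent) of promoter windows that hold each motif, for the 73 respiratory chain windows and for all 17491 promoters. NRF1 (13.7% against 2.41%) lies far above the background share, and SP1 (46.6% against 46.3%) lies on it.

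A promoter peak, meaning a peak within 1 kb of an annotated start site, was listed for 86 of the 91 genes in germ cells, 83 in hepatocytes, 87 in cardiomyocytes and 81 in stem cells. Of all members 73 had one in all 4 tables, 10 in 3, 7 in 2 and 1 in a single table. Their peaks were taller and, in 3 of the 4 tables, wider than the median over all protein-coding promoter peaks. Each member counts by its peak with most reads, while the background holds every promoter peak, weaker second peaks of a gene included. This favours the members, and its part in the difference was not tested. Shares over promoter peaks within a cell type, given below, use the same background. The median level per kb of peak was 16.2 CPM in germ cells against 11.7 over all protein-coding promoter peaks, 11.2 against 9.40 in hepatocytes, 13.05 against 11.2 in cardiomyocytes and 9.44 against 7.11 in stem cells. Members above the promoter median per kb numbered 79 of 86, 73 of 83, 69 of 87 and 76 of 81 in that order. Median widths were 3046.5 bases in germ cells against 3022, 7556 against 6020 in hepatocytes, 6211 against 4230.5 in cardiomyocytes and 4800 against 3653.5 in stem cells. Between 31 (germ cells) and 45 (cardiomyocytes) of these peaks also covered the start of another protein-coding gene, so their level is not the member's alone.

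An absent peak need not be a low level. The tables skip some of the peak caller's running numbers, and in 17 of the 27 cases of a member without a peak (13 genes) at least 1 number was missing between the flanking peaks. These were Atp5f1, Cox6a1, Cox7c and Ndufc2 in germ cells, Atp5a1, Ndufa6 and Ndufb10 in hepatocytes, Ndufs6 and Sdhb in cardiomyocytes, and Atp5b, Cox5a, Cox6a1, Cox7a2l, Ndufb10, Ndufc2, Ndufs1 and Ndufs6 in stem cells, most of them genes made in every cell with mitochondria. No number was missing in the other 10 cases, which fell on 5 genes, all of them tissue-specific forms of complex IV: Cox8b, Cox4i2, Cox6a2, Cox7b2 and Cox8c. Of all neighbouring pairs of peaks, from 5.16% (hepatocytes) to 9.997% (cardiomyocytes) had a skipped number. The unlisted markers Myh6, Actc1 and Tnnt2 of cardiomyocytes and Pou5f1, Nanog and Tdgf1 of stem cells likewise had 1 or 2 numbers missing between their flanking peaks, and Nppa of cardiomyocytes had 0. For members with a missing number the flanking peaks lay up to 93996 bases apart (Ndufs1 in stem cells), so the number need not belong to the start site. What removed the numbers was not tested.

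Several complex IV isoforms had a promoter peak in some cell types and none in others. Cox6a2, the muscle form, had a level per kb of 9.77 CPM in cardiomyocytes and 2.77 in germ cells, and no peak in hepatocytes or stem cells. Its cardiomyocyte peak, chr7:128202249-128208378 in mm10, covered 6130 bases, and its germ cell peak 1032. Cox8b, the muscle partner of Cox8a, had 11.1 CPM per kb in cardiomyocytes over chr7:140897102-140903729 and 3.53 in stem cells, where the peak lay 899 bases from the start, and no peak in the other tables. Cox8a itself lay at 8.33 CPM per kb in stem cells, 11.2 in hepatocytes, 12.7 in cardiomyocytes and 14.9 in germ cells. These 2 muscle forms were highest in heart cells, and the ubiquitous Cox8a was marked in each table.

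Cox7a1, also a muscle form, was not highest per kb in cardiomyocytes. Its level per kb was 9.94 CPM in cardiomyocytes, 10.5 in germ cells and 6.00 in hepatocytes, and its peak covered 8149, 1838 and 1244 bases. In stem cells it lay within an 18359-base peak that also spans Capns1, at 7.83 CPM per kb, so that value is not that of Cox7a1 alone. Cox7a2 ranged from 11.96 (stem cells) to 18.1 CPM per kb (germ cells).

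The testis forms were each listed in germ cells. Cox7b2 had a peak in germ cells alone, at 14.3 CPM per kb, and its nearest peak in hepatocytes was 494.943 kb away. Cox8c lay at 10.9 CPM per kb in germ cells and 3.10 in stem cells, with no peak in hepatocytes or cardiomyocytes. Cox6b2 was marked in germ cells (12.6) and stem cells (12.1) and low in hepatocytes (4.95) and cardiomyocytes (5.93). In one model over the B6 and D2 libraries of all 4 tables, where total level also counts the width, it was lower in germ cells than in stem cells by a log2 difference of -1.21 (-0.44 with width as an offset, adjusted p = 0.0014, edgeR). Its partner Cox6b1 lay between 7.88 and 16.1 CPM per kb in each table. Cox4i2 was low wherever it was listed, from 5.26 to 5.87 CPM per kb, and Cox4i1 lay between 7.65 and 15.4. Other paralogs did not separate so. Atp5g1, Atp5g2 and Atp5g3, which encode the same mature c subunit, lay at 15.6, 17.4 and 16.7 CPM per kb in germ cells, 14.9, 12.96 and 15.3 in cardiomyocytes, 12.05, 12.04 and 12.99 in hepatocytes and 9.58, 10.2 and 9.04 in stem cells. Ndufa4 was above Ndufa4l2 in each table, at 13.4 to 17.2 against 6.08 to 9.68. Each table has its own peak set and its own scaling, so levels of different tables stand side by side here and were not tested.

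**Figure D2:**
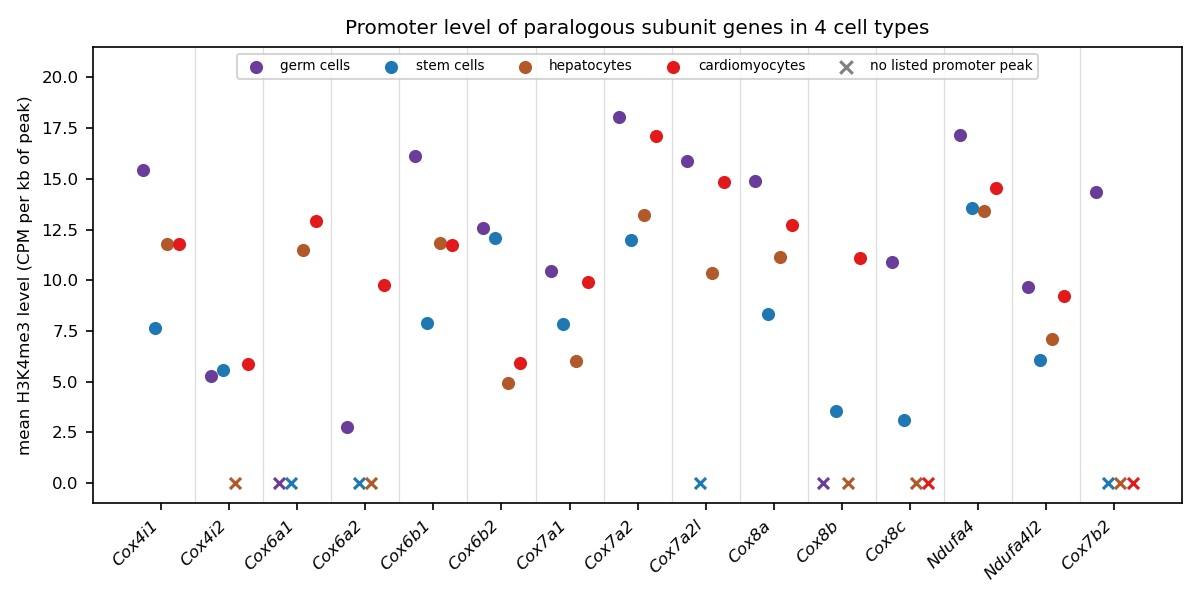
Mean level per kb of promoter peak (CPM per kb) of complex IV isoforms and NDUFA4 family members in the 4 cell types, with absent peaks marked. The muscle forms Cox6a2 and Cox8b stand at 9.77 and 11.1 in cardiomyocytes, and Cox7b2 is listed in germ cells alone.

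Total level, which also counts the width, put other members at the top. In germ cells the highest means were Ndufaf3 (an assembly factor) at 120 CPM, Uqcrh (the hinge protein of complex III) at 112 and Atp5g2 (a c subunit of the ATP synthase) at 100, followed by Atp5j and Ndufa11, and the lowest were Cox6a2 at 2.86, Cox4i2 at 10.9, Cox7a1 at 19.2, Cox8c at 22.2 and Ndufab1 at 30.7. Hepatocytes were led by Atp5b, the catalytic beta subunit, at 260 CPM, Atp5d at 214 and Uqcrq at 182, and the lowest were Cox6b2 at 5.96, Cox7a1 at 7.46 and Ndufa4l2 at 18.4. In cardiomyocytes Atp5d reached 532 CPM in a 39227-base peak shared with Cirbp, Midn and Cbarp, followed by Ndufs7 at 304 and Atp5b at 289, with Cox6b2 at 12.97 and Cox4i2 at 26.2 lowest. Stem cells had Ndufa7 at 166 CPM, Ndufaf3 at 165 and Ndufv2 (a core complex I subunit) at 148, with Cox8c at 3.56, Cox4i2 at 9.18 and Cox8b at 9.25 lowest. The lowest member in each table was a tissue-specific isoform of complex IV.

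To ask whether cell type moved the members as it moved other promoters, the 73 with a peak in every table were fitted with 8875 protein-coding promoters in one edgeR quasi-likelihood model on the B6 and D2 libraries. Cardiomyocytes and hepatocytes differed at 57 of 73 members, 29 higher and 28 lower in cardiomyocytes, against 84.3% of all 8875. Between cardiomyocytes and stem cells 53 differed (33 higher, 20 lower; background 83.2%), between hepatocytes and stem cells 62 (42 higher, 20 lower; 84.9%), and between germ cells and stem cells 56 (27 higher, 29 lower; 77.1%). These shares are close to or below the background and are no particular property of the respiratory chain. The median log2 difference of members was 0.01 for cardiomyocytes minus hepatocytes (all promoters -0.08), 0.14 for cardiomyocytes minus stem cells (-0.03), 0.29 for hepatocytes minus stem cells (0.02) and 0.00 for germ minus stem cells (0.01). Cell type, peak set, and for germ cells the library kit and antibody lot change together, and these cannot be told apart.

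Much of this depended on peak width. With the log of peak width as an offset, 13 of the 20 members named for cardiomyocytes minus hepatocytes changed direction, 10 of 20 for cardiomyocytes minus stem cells, 8 of 20 for hepatocytes minus stem cells and 7 of 20 for germ minus stem cells. Of these, 7, 8, 7 and 5 were called in the new direction, and the others were not. Cox7a1, Cox6b2 and Ndufa4l2 kept their direction and their call in the comparisons given here. On the common scale of that fit (CPM, lowest to highest of 6 libraries) Cox7a1 ran from 107 to 136 in cardiomyocytes and from 7.83 to 9.37 in hepatocytes, with no overlap. The log2 difference was 3.83 (SE 0.11, adjusted p = 2.5e-21, edgeR with Benjamini-Hochberg adjustment), and 1.12 with the width offset. Cox6b2 ran from 132 to 141 in stem cells and from 4.80 to 6.87 in hepatocytes. Hepatocytes were lower by a log2 difference of -4.58 (SE 0.15), or -2.59 with the offset. Ndufa4l2, an NDUFA4 relative known as a hypoxia-induced gene, ran from 203 to 324 in cardiomyocytes and from 12.5 to 23.9 in hepatocytes. It differed by 3.81 (SE 0.15), or 1.28 with the offset.

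The largest number of members called between B6 and D2 in any of the 4 cell types was in cardiomyocytes. Of 87 members 13 were called between B6 and D2 by edgeR's quasi-likelihood test at an adjusted p under 0.05, 12 higher in B6 and 1 lower, against 8.66% of 11634 promoter peaks. Including those not called, 70 of the 87 (80.5%) had a positive B6 minus D2 difference, with a median log2 difference of 0.20, whereas 42.2% of all promoters did, with a median of -0.05. The called genes were 6 subunits of complex I (of 33 tested), 1 assembly factor (of 8), 1 subunit of complex III (of 9), 4 of complex IV (3 higher, 1 lower, of 15) and 1 of the ATP synthase (of 17). None of the 3 complex II genes with a peak was called.

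Ndufa13, a complex I subunit also known as GRIM-19, had 157, 167 and 158 CPM in the B6 libraries and 93.4, 81.6 and 110 CPM in D2. The groups did not overlap and differed by a log2 of 0.77 (SE 0.10, adjusted p = 0.000228, edgeR). Cox6a2 stood at 68.6, 61.6 and 68.8 CPM in B6 and 40.6, 39.1 and 41.6 in D2. The log2 difference was 0.72 (SE 0.09, adjusted p = 0.00024, edgeR). The D2 libraries were close to each other and all below B6. Ndufb2, an accessory complex I subunit, stood at 76.4, 66.1 and 72.6 CPM in B6 and 46.02, 40.1 and 47.2 in D2, which differ by 0.70 on the log2 scale (SE 0.11, adjusted p = 0.0014, edgeR). Cox8b gave 81.3, 79.8 and 77.4 CPM in B6 and 56.3, 50.8 and 57.8 in D2, and differed by 0.53 (adjusted p = 0.0135, edgeR). The muscle isoforms Cox6a2 and Cox8b were thus higher in B6 heart cells, and the muscle isoform Cox7a1 was not called there.

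Ndufa6, an accessory subunit of complex I, had 325, 278 and 299 CPM in B6 and 196, 199 and 196 in D2 (0.61, adjusted p = 0.0009, edgeR). The D2 libraries lay close together and below each B6 library. The other genes described here as called higher in B6 had smaller log2 differences: Atp5g3 (0.54), Ndufc2 (0.52), the assembly factor Ndufaf4 (0.48), Ndufb10 (0.47), the Rieske protein Uqcrfs1 (0.46) and Cox6b1 (0.40). Cox4i2 alone was lower, at 20.9, 28.01 and 20.7 CPM in B6 and 36.6, 41.999 and 40.4 in D2, with B6 minus D2 at -0.78 (SE 0.17, adjusted p = 0.0158, edgeR). B6 and D2 libraries did not overlap for any of the 13, but the genes were picked by their call, which itself favours separation. How many of all called promoter peaks separate likewise was not counted. The number called was 20 with only B6 and D2 in the fit and 20 by DESeq2, 7 without B6 replicate 1 or D2 replicate 2 and 23 without B6 replicate 2. Leaving out a single library cost 6 of the genes reported by name their call at least once. Cox4i2 then had an adjusted p (edgeR) of 0.0917 without B6 replicate 1, 0.104 without B6 replicate 3, 0.0914 without D2 replicate 2 and 0.0556 without D2 replicate 3, and Cox8b had 0.0629 without B6 replicate 1 and 0.0931 without D2 replicate 2. Cox6b1, Ndufc2, Ndufaf4 and Uqcrfs1 lost their calls likewise. Ndufa13, Cox6a2, Ndufa6, Ndufb2, Atp5g3 and Ndufb10 kept theirs in each case.

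**Figure D3:**
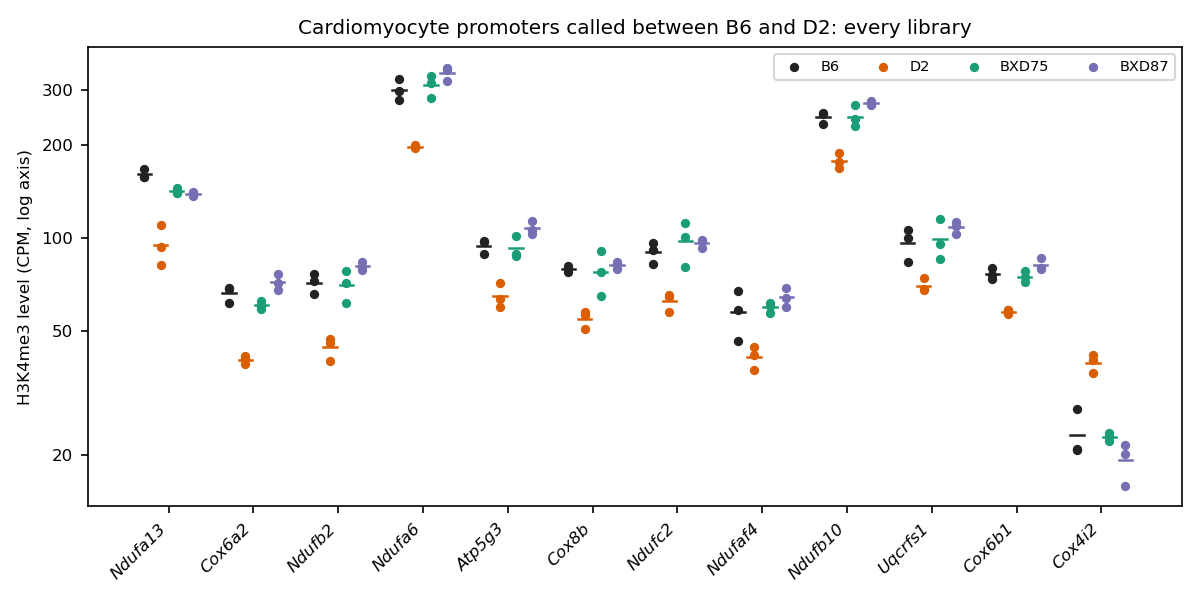
Level (CPM, log axis) of 12 of the members called between B6 and D2 in cardiomyocytes, 1 point a library in B6, D2, BXD75 and BXD87, with a bar at each mean. The D2 points lie below B6 for all except Cox4i2, and the BXD75 and BXD87 points lie nearer B6.

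Both recombinant lines resembled B6 at these promoters. For Ndufa13 the mean was 141 CPM in BXD75 and 139 in BXD87, against 161 in B6 and 95.01 in D2. For Cox6a2 it was 60.8 and 72.1, against 66.3 and 40.4. For Cox4i2 it was 22.8 and 19.2, against 23.2 and 39.7. Both lines were nearer B6 at 13 of the 13 genes, but the same held at 911 of the 1007 promoter peaks called (90.5%), so it is no property of the respiratory chain. BXD75 and BXD87 themselves differed at 0 of 87 members (0.370% of promoter peaks called) by edgeR, with 1 higher and 6 lower at an unadjusted p under 0.05 and 1 called by DESeq2 or without BXD75 replicate 2. The sign ran the other way from B6 minus D2: 24 of 87 members (27.6%) had a positive BXD75 minus BXD87 difference, against 64.2% of promoters. The 4 cardiomyocyte markers with a peak had a median log2 difference of -0.41 there, with 0 called, and their part in this was not tested.

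Other measures moved with the B6 and D2 difference. Of the 4 cardiomyocyte markers with a peak, Tnni3, Pln and Myl2 were called higher in B6, and the 4 had a median log2 difference of 0.69; their summed level ran from 337 to 655 CPM over all libraries. Among cardiac non-myocyte markers 0 of 6 with a peak were called, their median difference was -0.06 and their summed level ran from 425 to 587 CPM. Reads in peaks were lower in each D2 library than in each library of the other strains. The part of cell makeup and of depth in the result was not tested.

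**Figure D4:**
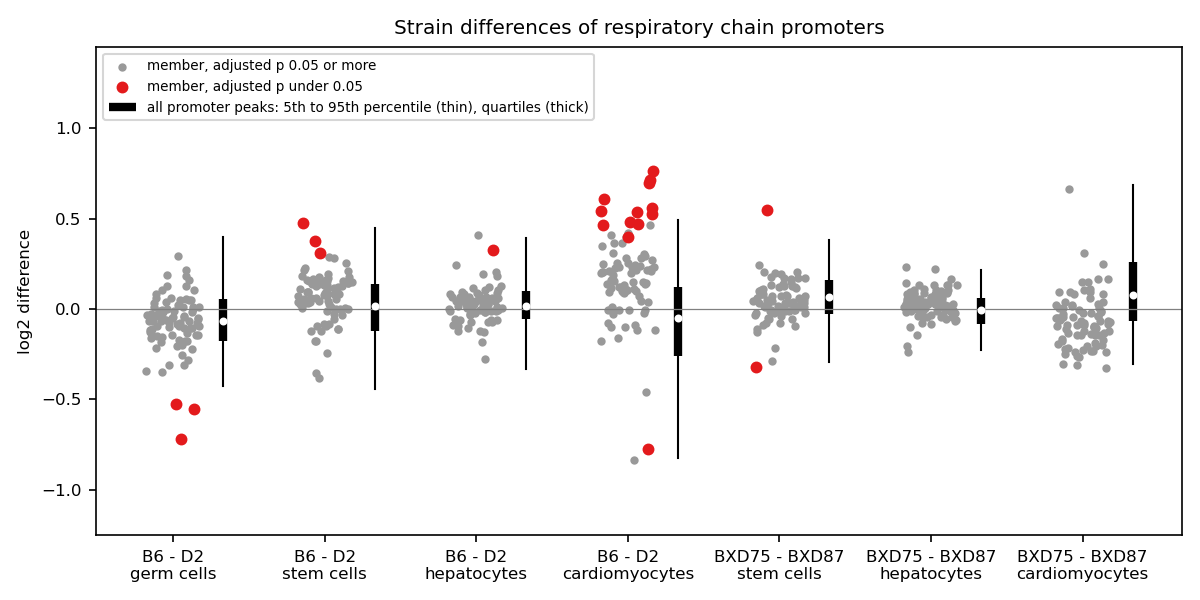
Log2 differences of members between B6 and D2 and between BXD75 and BXD87 in each cell type, 1 point a gene, called members in red; black bars give the percentiles of all promoter peaks, with a white point at the median. In cardiomyocytes 70 of 87 members lie above 0 while the median of all promoters is -0.05.

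In germ cells 3 of 86 members were called between the founders, all lower in B6, against 4.40% of 14709 promoter peaks. Over all members 25 of 86 (29.1%) had a positive B6 minus D2 difference, against 34.8% of promoters. Ndufb4, a complex I accessory subunit, had 42.04, 44.8 and 46.04 CPM in B6, 63.8, 62.1 and 63.5 in D2 and 46.1, 42.9, 49.1 and 50.1 in the F1. B6 and D2 did not overlap and differed by a log2 of -0.52 (SE 0.13, adjusted p = 0.0074, edgeR), and the F1 libraries lay near B6. Cox4i2 gave 5.001, 7.33 and 5.13 CPM in B6, 8.96, 10.2 and 10.1 in D2 and 7.74, 7.89, 8.66 and 6.51 in the F1. B6 was lower by a log2 of -0.72 (SE 0.20, adjusted p = 0.0179, edgeR), and the F1 lay mostly between the parents. Cox7a1 had 12.6, 15.7 and 14.3 CPM in B6, 21.2, 19.4 and 21.7 in D2 and 14.8, 16.6, 14.999 and 15.3 in the F1, a B6 minus D2 log2 of -0.55 (SE 0.16, adjusted p = 0.0198, edgeR). The Cox4i2 and Cox7a1 calls were lost when single libraries of either founder were left out (adjusted p 0.0673 without B62 and 0.0874 without B64 for Cox4i2, and 0.0672 and 0.0587 for Cox7a1, edgeR), and the Ndufb4 call was not. Without B62 7 members were called, and without B64, 1. Markers of other cell types moved too. Of 5 Sertoli and Leydig cell markers with a peak, Hsd3b1 and Cldn11 were called between B6 and D2, 1 in each direction. Of 5 cardiac non-myocyte markers with a peak, Dcn was called higher in B6. Among the 8 male germ cell markers 0 were called, at a median log2 difference of -0.30. The part of cell makeup in these germ cell differences was not tested.

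The F1 differed from the mean of its parents at 0 of 86 members (background 0.381%; 0 in either direction at an unadjusted p under 0.05, edgeR; DESeq2 0) and from B6 at 0 (1.12%; 0 at an unadjusted p under 0.05; DESeq2 0; 2 without B62). It differed from D2 at 1 (1.13%): Ndufb4, with a log2 difference of -0.42 (adjusted p = 0.0393, edgeR). That call was lost without any one of the D2 or F1 libraries (adjusted p 0.0619 to 0.165).

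Cox4i2 was lower in B6 than D2 in both cell types where it was called. In stem cells its levels overlapped, at 8.21, 7.62 and 6.96 CPM in the B6 lines and 13.7, 9.12 and 6.48 in D2, with a log2 difference of -0.38 (SE 0.22, adjusted p = 0.208, edgeR). It had no hepatocyte peak.

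In hepatocytes 1 of 83 members was called between B6 and D2 (background 7.37%). Ndufc2, a complex I subunit, had 76.5, 81.0 and 78.9 CPM in B6 and 66.9, 61.6 and 60.4 in D2, which differ by 0.32 on the log2 scale (SE 0.10, adjusted p = 0.0266, edgeR). The groups did not overlap, but the call was lost without any one of 5 of the 6 libraries (adjusted p 0.0527 to 0.101). BXD75 and BXD87 had 60.4, 53.1 and 53.9 and 61.4, 53.2 and 50.02 CPM, near D2. Between those lines 0 of 83 members were called (1.77%; 1 higher and 1 lower at an unadjusted p under 0.05, edgeR; DESeq2 0), and 1 was without BXD87 replicate 1. The 3 liver non-parenchymal markers with a peak had a summed level of 7.37 to 86.8 CPM over all hepatocyte libraries. Between B6 and D2, Stab2 of these was called lower in B6, and the cardiac non-myocyte marker Pdgfra higher. Of 8 hepatocyte markers 0 were called, at a median log2 difference of -0.04. The part of cell makeup in these hepatocyte results was not tested.

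In stem cells 3 of 81 members were called between B6 and D2 (background 12.5%), all higher in B6. Ndufaf5 stood at 68.2, 72.7 and 79.4 CPM in B6 lines and 39.1, 53.5 and 66.4 in D2, Ndufaf2 at 53.6, 54.2 and 55.2 against 34.2, 42.4 and 49.5, and Ndufv2 at 165, 165 and 161 against 123, 130 and 143. The log2 differences were 0.48, 0.37 and 0.31 (adjusted p 0.0113, 0.0210 and 0.0481, edgeR). B6 lines did not overlap D2 lines for these, which picking genes by their call favours. D2 line 173 was the lowest of the D2 lines for each. Without it none of the 3 kept its call (adjusted p 0.0603 for Ndufaf5, 0.111 for Ndufaf2 and 0.126 for Ndufv2, edgeR). The 1 member called in that fit was Atp5s, lower in B6 by a log2 difference of -0.33 (adjusted p = 0.0154, edgeR), which is named here after its value was seen. Without B6 line 49, 0 members were called, and without D2 line 216, 23 were. The Ndufv2 call was also lost without B6 line 139, B6 line 146 or D2 line 203 (adjusted p 0.105, 0.103 and 0.112, edgeR). Including members not called, 64 of 81 (79.0%) had a positive B6 minus D2 difference, against 53.5% of promoters. Markers of other cell types moved too: of 7 male germ cell markers with a peak, Stra8, Sycp3 and Ddx4 were called higher in B6, with a median log2 difference of 0.46 over the 7 and a summed level of 52.04 to 81.6 CPM over all lines, and Wt1, Pecam1 and Apoa1 were called lower. None of the 5 stem cell markers with a peak was called, at a median of -0.01. The part of cell makeup in the result was not tested. With only B6 and D2 in the fit 0 were called, and with each library as a replicate 14.

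Between BXD75 and BXD87 stem cells 2 of 81 members were called (11.7%). Cox7a1, in the wide peak shared with Capns1, had 134, 125, 121, 146 and 124 CPM in the BXD75 lines and 156, 183, 163, 160 and 150 in BXD87, with no overlap and a log2 difference of -0.32 (SE 0.08, adjusted p = 0.0082, edgeR). Cox8c had 4.57, 3.64, 4.94, 3.58 and 4.44 CPM in BXD75 and 3.20, 2.04, 2.64, 3.65 and 2.85 in BXD87. The groups overlapped slightly, and BXD75 was higher by 0.55 (SE 0.17, adjusted p = 0.02, edgeR). The Cox8c call was lost without BXD75 line N (0.0577) or BXD87 line I (0.0533). The number called was 6 without BXD87 line I, 1 without BXD75 line N and 5 with only the 2 groups in the fit.

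Whether B6 and D2 differed by the same amount in each cell type was tested directly with an interaction term. It was called at 11 of 73 members (background 16.4%). The test used summed promoter peaks of the B6 and D2 libraries in a joint fit. The log2 differences given beside its p come from the separate fit of each cell type, on the single peak chosen per gene. Ndufa13 gave B6 minus D2 log2 differences of 0.77 in cardiomyocytes, -0.03 in germ cells, -0.18 in hepatocytes and 0.04 in stem cells (adjusted p = 3e-06, edgeR). Ndufb2 (0.70, 0.01, 0.02 and 0.18 in that order) likewise differed in cardiomyocytes. For Cox7a1 the values were 0.16, -0.55, -0.12 and 0.17, the germ cells standing apart. The calls of Ndufa13, Ndufb2 and Cox7a1 held when any single library was left out, and 7 of the 10 calls reported by name were lost at least once. The number called ran from 5 without cardiomyocyte D2 replicate 2 to 22 without cardiomyocyte B6 replicate 2, and was 18 by DESeq2.

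Other genes of the pathway were taken from lists of 16 transcriptional regulators and 45 assembly factors and cytochrome c genes. Between the founders 0 of 15 regulators and 0 of 45 assembly genes were called in germ cells (4.40% of all promoter peaks). In hepatocytes Tfb2m (0.33), Esrrg (0.61) and Ppara (0.47) were called higher in B6, of 16 regulators, and 0 of 43 assembly genes (7.37%). In cardiomyocytes 0 of 15 regulators and 2 of 40 assembly genes, Cox17 (0.42) and Sdhaf4 (0.57), were called, both higher in B6 (8.66%). In stem cells 1 of 16 regulators, the GABP subunit gene Gabpb1 (0.30), and 1 of 43 assembly genes, the testis cytochrome c Cyct (0.37), were called higher in B6 (12.5%). Between BXD75 and BXD87 stem cells 0 of 16 regulators and 4 of 43 assembly genes were called (11.7%): the complex I assembly factor Acad9 (0.35), Sdhaf1 (0.22) and Uqcc2 (0.48) were higher in BXD75 and Cyct lower (-0.28). Apart from the hepatocyte regulators these shares lie below those over all promoter peaks. Cycs, the somatic cytochrome c, was not called in germ cells, hepatocytes or stem cells (B6 minus D2 0.06, 0.06 and -0.03) and had no cardiomyocyte peak listed.

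The 61 BXD lines show how far each promoter varies in germ cells. The variance between lines over the variance within the 7 lines that had repeat libraries had a median of 0.650 for members and 0.772 for all promoter peaks, but without the libraries under 4 M reads these became 1.505 and 1.68. Only 5 of 86 members (5.81%) had a ratio above 2, against 11.9% of promoters: Cox8a (8.32), Cox8c (4.25), Atp5g3 (3.503), Cox7b2 (2.93) and Ndufb10 (2.93). Without those shallow libraries 28 members (32.6%) and 37.5% of promoters did. In both settings the members' median and their share above 2 lay below those of all promoters. Cox4i2 ranged from 5.43 CPM in BXD75 over a median of 11.2 to 17.9 in BXD64. These ends lay beyond both founders on the scale of all germ cell libraries (B6 6.64, D2 10.7). The only germ cell library of BXD75 is among those under 4 M reads, and BXD64 used another antibody lot than the founders. The CPM given here were not corrected for lot, and the part of depth and lot in these ends was not tested. Cox8c ranged from 12.9 CPM in BXD75, the same shallow library, to 31.3 in BXD49. Atp5g3, a c subunit gene of the ATP synthase, ranged from 54.1 to 106. Ndufb4 ranged from 38.7 to 59.2 CPM with a median of 47.3, which lay below both B6 (50.6) and D2 (69.1). The founders' libraries all used the antibody lot of the 33 line libraries named next. Cox7a1 ranged from 12.4 to 23.7 CPM. The 33 line libraries of one antibody lot and the 36 of the other differed by a median log2 of 0.22 over the members, and the ratios were computed after correcting for lot.

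The Cox8a ratio fell from 8.32 to 0.311 without BXD42. In that line its peak (chr19:7216109-7219119, mm10) held 7 reads, or 0.720 CPM (95% Poisson interval 0.289 to 1.48, which covers counting error only), where about 407 reads would be expected at the median level. The other 68 libraries lay between 35.3 and 63.7 CPM, with a median of 41.9, and none had fewer than 108 reads. BXD42 thus had 1.72% of the median, and this was the only value of 5934 member-by-library values under 10% of its gene's median; the next lowest was 43.8%. Peaks on either side were not low: Otub1, 8477 bases away, had 60.6 CPM (median 50.1) and Naa40, 20048 bases away, 51.4 (median 42.9). The founders overlapped, at 44.6, 52.5 and 63.5 CPM in B6 and 52.5, 57.5 and 52.7 in D2 (log2 difference -0.03, SE 0.15, adjusted p = 0.919, edgeR). Of 14827 peaks with a median of at least 20 CPM, 3 were under 5% of their median in BXD42, against 0 to 11 (median 2) over the libraries. BXD42 has 1 library, so there is no repeat, and the cause was not tested.

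**Figure D5:**
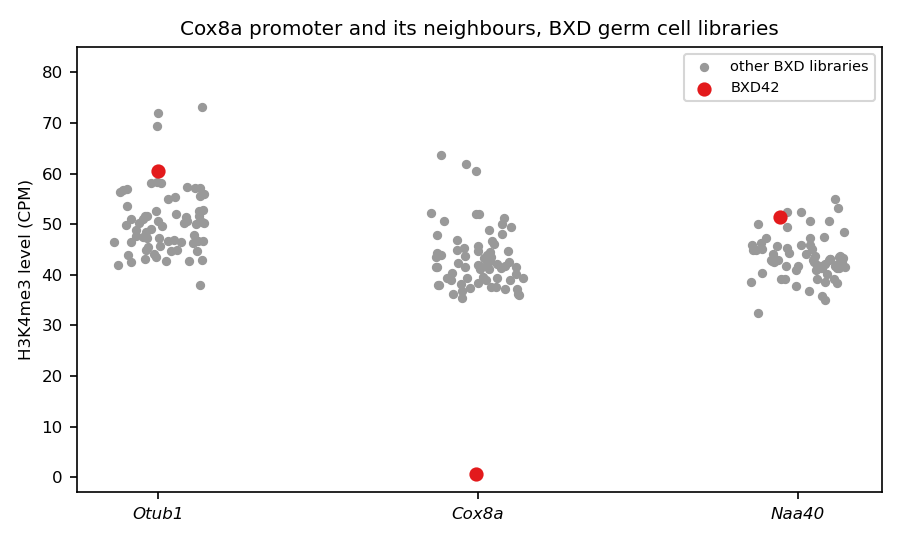
Level (CPM, linear axis) of the Otub1, Cox8a and Naa40 promoter peaks in the BXD germ cell libraries, 1 point a library, spread sideways for legibility. The BXD42 point is at 0.720 CPM and the other 68 lie between 35.3 and 63.7, while Otub1 and Naa40 in BXD42 lie within the range of the other libraries.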

How the data were processed

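H3K4me3 ChIP-seq was analysed from the deposited tables of read counts in peaks, 1 table a cell type. The counts are the authors' own whole-number reads per peak, not normalized, and the submitters' processing notes name CASAVA 1.8, BWA 0.5.10, MACS 1.4.2 and mm10 with no role or order. MNase digestion and the antibody lots are as the labels' protocols give them. Which reads were counted on which strain's genome, and why some caller numbers are missing, was not given in the sources used here. Association coordinates joined peaks to GENCODE M21 (GRCm38, the same assembly as mm10). A member's promoter peak was the peak with most reads within 1 kb of any of its start sites. Germ cell columns of B6 carry no replicate number that the labels repeat, so they are named by their column (B62, B63, B64). The 12 input samples were not used.

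Each table was fitted with edgeR 4.0.16 in R 4.3.3 (quasi-likelihood F test, filterByExpr, TMM, robust fit), with all groups of the table in 1 fit. Adjusted p-values are Benjamini-Hochberg over all peaks of the table, and a peak was called at an adjusted p under 0.05. Levels are TMM-scaled CPM. Stem cell libraries of one line were summed. The cell type and interaction fits used summed promoter peaks of the B6 and D2 libraries. DESeq2 1.42.0, other filters, a 250-base window, fits of only the groups compared, a replicate block, thinning, width offsets and matched peaks (bedtools 2.31.1, 50% reciprocal overlap) were the alternatives; F1 against either parent alone and the variance ratio without BXD42 were added after seeing the data. The scripts were tested on simulated data. Promoter windows are RefSeq's for GRCm38.p6, 250 bases before to 50 after each start; 73 of 91 names matched. Levels (CPM) have the precision of the reads behind them, and intervals cover counting error only.

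The labels do not say whether replicate numbers of hepatocytes and cardiomyocytes pair the samples, and the main fits assumed no pairing. Same-numbered deviations correlated above 0.1 in 5 of 18 pairs in hepatocytes (-0.265 to 0.605) and 8 of 18 in cardiomyocytes (-0.734 to 0.650). With so few libraries a group these correlations cannot decide it. Named genes were every member called (the 10 of largest change in each direction where more than 25 were), the 5 highest and 5 lowest by level, those lacking a peak in at least 1 table and the paralog sets of muscle, testis or hypoxia forms, and list genes that were called, with Cycs and Cyct. The members and lists were chosen with earlier results of these data known. One member is included in the counts and is not reported here by name.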

Additional observations from a re-analysis of the deposited data

Results flagged for a closer look

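Parentheses below give the adjusted p of the interaction test (edgeR, Benjamini-Hochberg). Where log2 differences follow it, they are for cardiomyocytes, germ cells, hepatocytes and stem cells in that order. Those values come from the separate fit of each cell type, not from the interaction fit. The B6 minus D2 difference depended on the cell type at 11 of 73 members by the interaction test. The share over all 8875 promoters was 16.4%, so the count is no particular property of the members. Among complex I genes these were Ndufa13 (3e-06), Ndufb2 (0.000833), Ndufb4 (0.0116; 0.20, -0.52, -0.03 and 0.09), Ndufb7 (0.0273; 0.28, 0.06, -0.02 and -0.18), Ndufab1 (0.036; 0.10, -0.31, -0.10 and 0.14) and Ndufa12 (0.0476; 0.30, -0.07, -0.27 and 0.14). The assembly factors were Ndufaf4 (0.0259; 0.48, -0.22, 0.01 and -0.08) and Ndufaf2 (0.0302; 0.24, 0.11, -0.09 and 0.37). Uqcrfs1 (0.0178; 0.46, -0.02, 0.11 and 0.14) of complex III and Cox7a1 (0.000616) of complex IV were the others given here. Among these 10, cardiomyocytes gave the largest positive B6 minus D2 difference at all except Ndufab1, Ndufaf2 and Cox7a1.

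In stem cells BXD75 line Q stood apart for Ndufaf2, at 56.8 CPM against 48.0 to 49.2 in the other 4 BXD75 lines. BXD87 line I stood apart for Ndufv2, at 165 CPM against 131 to 137 in the other lines. Line I was also the highest BXD87 line for Cox7a1, Ndufaf2 and Ndufaf5 and the lowest for Cox8c, by smaller gaps. Ndufaf2 in BXD75 and Ndufv2 in BXD87 were the 2 of 13 groups of 4 or 5 samples looked at that held such a sample, and chance gives about 1 in 20. The groups share samples between genes, so they are not independent.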

How the results depend on the processing

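With the log of peak width as an offset these members changed direction (log2 difference with the offset in parentheses): for cardiomyocytes minus hepatocytes Uqcrq (0.12), Ndufaf1 (0.10), Ndufaf2 (0.77), Ndufb3 (0.28), Atp5s (0.39), Cox7a2 (0.17), Uqcrb (0.025), Ndufaf4 (0.22), Ndufs5 (0.73), Ndufaf5 (0.62), Ndufb7 (-0.031) and Ndufa8 (-0.43). They were for cardiomyocytes minus stem cells Ndufaf3 (0.21), Cox8a (0.13), Ndufaf5 (0.11), Ndufs7 (-0.39), Ndufb7 (-0.33), Ndufa8 (-0.38), Ndufv1 (-0.29), Ndufa5 (-0.48) and Uqcr11 (-0.22), for hepatocytes minus stem cells Uqcrq (-0.43), Ndufa5 (-0.28), Uqcr11 (-0.38), Ndufs8 (-0.35), Ndufa12 (-0.51), Ndufaf4 (-0.22), Uqcrfs1 (-0.35) and Atp5h (-0.35), and for germ cells minus stem cells Atp5d (0.20), Ndufa7 (0.45), Ndufv2 (0.76), Atp5j2 (0.42), Cox8a (0.70), Ndufb4 (0.15) and Cox4i1 (0.59). Peaks matched at 50% reciprocal overlap (8 members left) gave 6, 6, 7 and 3 members called in these comparisons and 1 in the interaction test, since fewer members could be tested; DESeq2 gave 18 in the interaction test. With only the compared groups in the fit, 2 members were called for F1 minus D2, 3 for B6 minus D2 in hepatocytes, 20 in cardiomyocytes and 0 in stem cells, and 5 for BXD75 minus BXD87 in stem cells. DESeq2 called 2 for F1 minus D2, 20 for B6 minus D2 and 1 for BXD75 minus BXD87 in cardiomyocytes; single stem cell libraries as replicates gave 14 for B6 minus D2. Leaving out 1 library or line gave from 1 to 7 members called for B6 minus D2 in germ cells, 0 to 1 in hepatocytes, 7 to 23 in cardiomyocytes and 0 to 23 in stem cells, 0 for F1 minus D2, 0 to 2 for F1 minus B6, 0 to 1 for BXD75 minus BXD87 in hepatocytes and in cardiomyocytes and 1 to 6 in stem cells. It gave 54 to 59, 53 to 57, 59 to 61 and 52 to 57 for the cell types in the order above and 5 to 22 for the interaction. The cause of these moves was not tested. Some of the values with the offset are near 0 and not called, such as those of Uqcrb (adjusted p 0.83) and Ndufb7 (0.75) for cardiomyocytes minus hepatocytes.

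Whether replicate numbers pair the samples is not known. With the replicate block 11 members were called in cardiomyocytes between B6 and D2, 1 in hepatocytes, 1 for F1 minus D2 and 0 between the BXD lines. Under the block Ndufaf4 (adjusted p 0.079) and Uqcrfs1 (0.0791) lost their calls (edgeR). Of the values for single genes, 243 of strain differences and 1127 of cell type differences kept direction and call, and 61 and 12 kept direction only. Of the interaction's adjusted p-values, which have no direction, 221 stayed under the threshold and 49 did not. The shallow D2 cardiomyocyte libraries limit the precision there, and thinning all libraries to the shallowest gave 14 members called but lost Uqcrfs1 (adjusted p 0.134), Ndufaf4 (0.103) and Cox6b1 (0.0846). The Cox8a variance ratio was 0.311 without BXD42 and 26.1 without libraries under 4 M reads.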
